A study of Homo sapiens with 18 samples.

Results

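ABC transporter genes encode the ATP-binding cassette family, and were taken here as the protein-coding genes whose symbol is ABC, a letter from A to G and a number, present in the count tables of both cell lines. The rule gave 45 members, out of 60603 rows in the H1650 table and 60649 in the PC9 table. By textbook function they were sorted into 10 drug efflux pumps, 21 lipid transporters, 6 mitochondrial, lysosomal and cobalamin members, 4 channel regulators and other ABCC members, and 4 translation factors without membrane domains. H1650 and PC9 are human lung adenocarcinoma lines with an activating EGFR mutation, and the libraries came from their brain-metastatic derivatives. Poly-A selected RNA was sequenced in 3 groups per line with 3 libraries each, with the labels Tr-BrM S100A9-inh, Tr-BrM control and, for the comparison without Tr, BrM control. All groups carry the BrM label, and the S100A9-inh group is the one with a treatment aimed at S100A9. The meaning of Tr, the way S100A9 was inhibited and whether a derivative is 1 clone were not given in the sources used here. No label places the replicates of a group in separate cultures, and p-values therefore reflect just the spread of these samples, possibly a technical one.

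An ABC transporter pairs nucleotide-binding domains, which bind and split ATP, with membrane-spanning domains that form the path for the substrate. The ABCB, ABCC and ABCG pumps that export drugs are studied for resistance to chemotherapy and kinase inhibitors, and ABCB1 and ABCG2 line the blood-brain barrier. The ABCA, ABCD and ABCG1 members move sterols, phospholipids, sphingolipids and very long-chain fatty acids across or between membranes. ABCE1 and the ABCF proteins keep the ATP-binding domains, have no membrane domain, and act on ribosomes.

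Levels are CPM, the usual depth-scaled counts, here on each library's TMM-adjusted total and with SD over n = 3 libraries, and changes are log2 fold changes ± SE of 3 libraries against 3. "Rose" and "fell" are used of changes with an adjusted p under 0.05 in edgeR's quasi-likelihood test, adjusted over all tested genes of the line. The libraries held 17.4 to 27.1 M counts in H1650 and 18.2 to 21.8 M in PC9. S100A9, the gene named as target, was at 217, 206 and 199 CPM over BrM controls, 336, 293 and 292 CPM over Tr-BrM controls and 95.2, 88.2 and 105 CPM over S100A9-inh libraries in H1650. In PC9 it was at 119, 127 and 119.7 CPM over BrM controls, 739, 738 and 759 CPM over Tr-BrM controls and 33.9, 30.4 and 35.5 CPM over S100A9-inh libraries. It was thus lowest in all libraries labelled S100A9-inh in both lines. Replicate 1 of PC9 S100A9-inh stood apart from its group: its counts differed from those of the other replicates with a chi-square per degree of freedom of 5.94 and 5.37, against at most 3.58 for any other pair of replicates.

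The lung epithelial markers EPCAM, KRT7, KRT8, KRT18, KRT19 and CDH1 were high in every group. Their sum was lower in both Tr-BrM groups than in the BrM controls. In H1650 the BrM controls held 10790 to 10860 CPM. The Tr-BrM controls held 9041 to 9371 CPM and the S100A9-inh libraries 8808 to 9154 CPM. The PC9 sums were 26070 to 26550, 20000 to 20520 and 21230 to 23380 CPM in the same order. Between the H1650 controls, 4 of the 6 fell (66.7%, against 31.7% of all genes) and 1 rose. Of the PC9 markers, 5 fell (83.3% against 30.3%). No called change of these markers reached 2-fold. Markers of other cell types also differed between the groups in both lines. The 6 astrocyte markers summed to 34.4 to 42.1 CPM in the BrM controls, 262 to 270.4 CPM in the Tr-BrM controls and 209 to 219.9 CPM under S100A9-inh, and the 6 fibroblast and pericyte markers to 20.6 to 22.1, 154 to 171 and 171 to 183 CPM. All 12 of these genes had counts in each H1650 group. Between the H1650 controls, 5 of the 6 astrocyte markers rose (83.3%, against 32.2% of all genes) and 1 fell (16.7% against 31.7%). All 6 of these changes were at least 2-fold. In PC9 the astrocyte sum was 15.5 to 16.6, 97.8 to 103 and 34.2 to 37.7 CPM, mostly the glutamate transporter SLC1A3, while AQP4 and GJA1 were at 0 in both Tr-BrM groups. The PC9 fibroblast and pericyte sum was lower in the Tr-BrM groups, at 27.4 to 27.7, 14.5 to 17.1 and 18.7 to 21.6 CPM, with LUM at 0 in all groups and DCN at 0 in both controls. The 6 microglia and myeloid markers summed to 87.5 to 90.2, 89.4 to 95.7 and 103 to 108 CPM in H1650 and to 30.1 to 30.9, 7.55 to 8.66 and 16.2 to 18.4 CPM in PC9, where TYROBP was at 0 throughout. The H1650 sum hides changes of single markers. Of the 4 tested there, 3 rose (75.0% against 32.2%) and 1 fell (25.0% against 31.7%) between the controls. Their log2 changes ran from -0.15 to 2.42, with a median of 2.02. The 6 choroid plexus markers summed to 0.864 to 1.40, 6.14 to 7.05 and 2.42 to 2.83 CPM in H1650 and to 1.23 to 1.72, 6.65 to 6.93 and 2.90 to 3.63 CPM in PC9, with TTR at 0 in both Tr-BrM groups of each line. The 6 endothelial markers summed to 7.36 to 8.82, 10.1 to 12.2 and 11.5 to 16.2 CPM in H1650 and to 22.9 to 26.6, 40.7 to 41.4 and 23.6 to 28.4 CPM in PC9. The part of these markers in the changes of the ABC members was not tested. In bulk RNA, fewer cells of a type and less RNA per cell cannot be told apart.

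In H1650, 32 of the 45 members passed the filter on low counts, and in PC9 29 did, 28 of them in both lines. Between the Tr-BrM and the BrM controls of H1650, 15 of 32 members rose (46.9%, against 32.2% of all 17937 genes tested), 5 fell (15.6% against 31.7%) and 12 did not pass. Of these changes, 9 (28.1% against 20.6%) were at least 2-fold, and the median change was 0.19, against 0 over all genes. In PC9, 10 of 29 rose (34.5% against 29.6% of 16169 genes), 7 fell (24.1% against 30.3%) and 4 changed at least 2-fold (13.8% against 12.7%), with a median of 0.09 against 0. These counts describe the members that passed the filter and were not tested against other genes.

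Under S100A9-inh, set against the Tr-BrM controls, 3 members of H1650 rose (9.38%, against 15.4% of all genes), 6 fell (18.8% against 13.8%) and 23 did not pass. The median was -0.08 against 0. At least 2-fold changes were made by 2.04% of all genes there, and the largest among the called members was that of ABCC4, at 0.58 ± 0.13. In PC9, 8 members rose (27.6% against 26.3%) and 11 fell (37.9% against 26.1%), with a median of -0.08, and 1, ABCA4, changed at least 2-fold (3.45% against 7.81%). Set against the BrM controls, the S100A9-inh libraries of H1650 had 17 members higher (53.1% against 32.5%), 7 lower (21.9% against 31.2%) and 11 changed at least 2-fold (34.4% against 19.5%). Those of PC9 had 10 higher (34.5% against 22.7%), 11 lower (37.9% against 23.6%) and 4 changed at least 2-fold (13.8% against 7.40%). Each comparison shares a group of control libraries with another one, so their values stand side by side and are not independent.

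**Figure D1:**
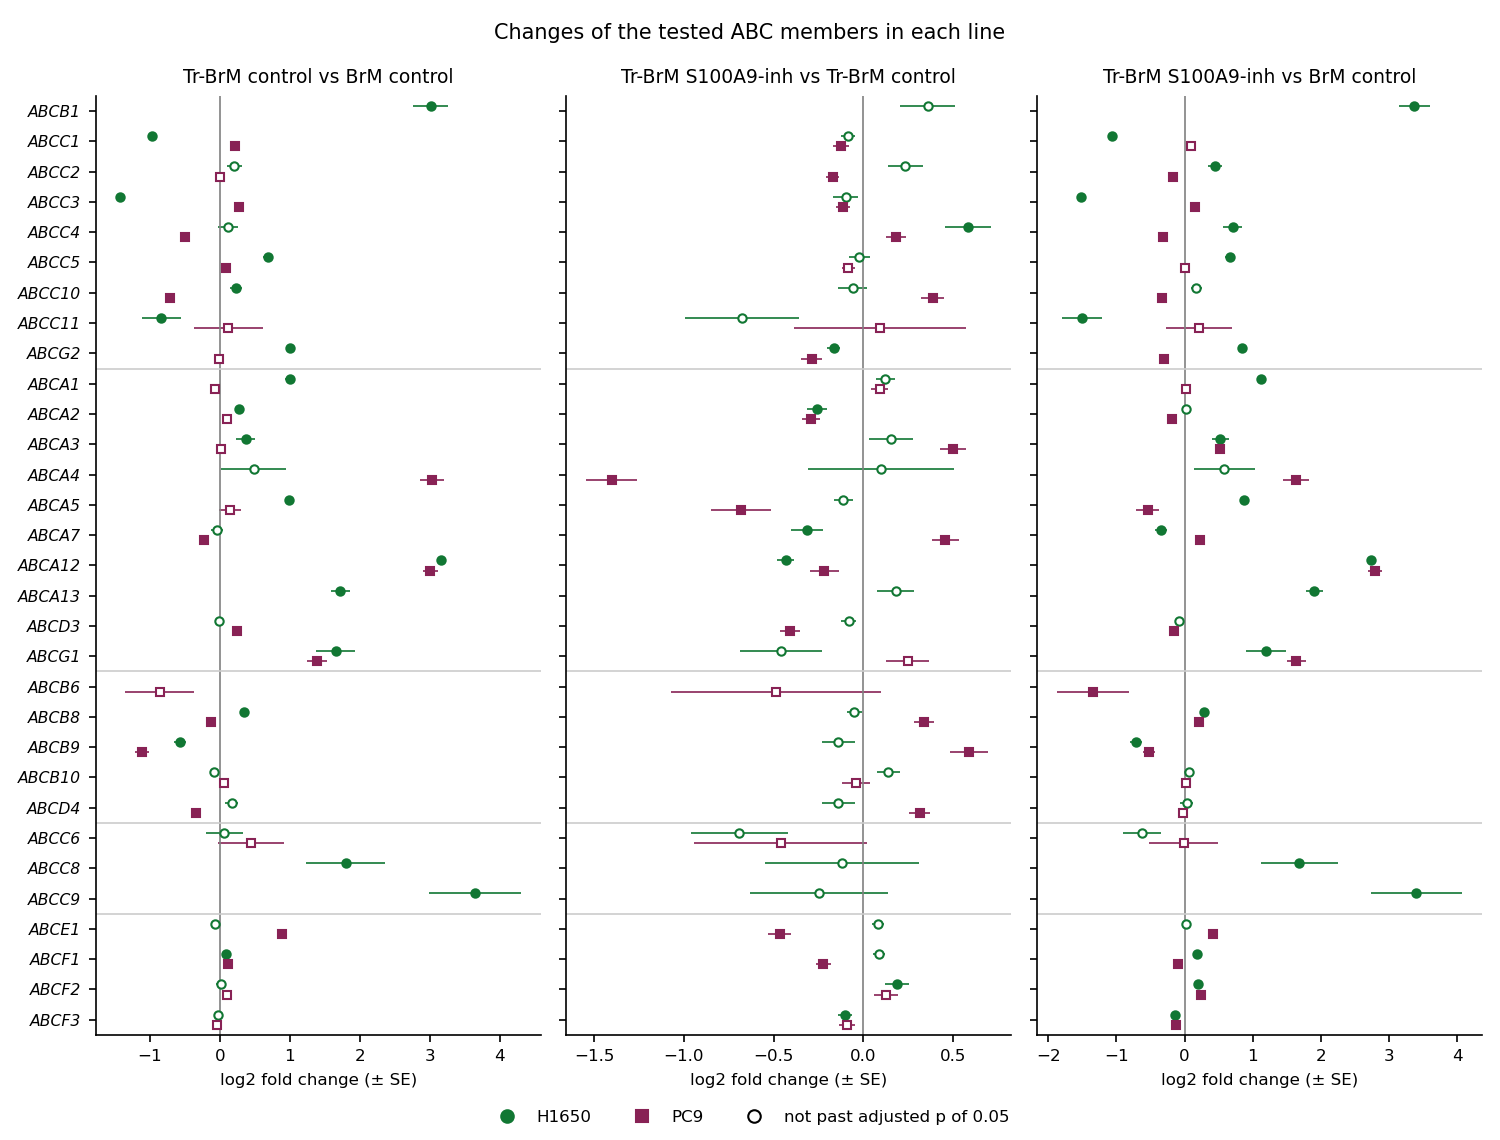
Log2 fold change ± SE of the tested ABC members shown, in 3 comparisons (panels), for H1650 (green circles) and PC9 (purple squares); filled points passed an adjusted p of 0.05 in edgeR's test, open points did not, and lines part the 5 roles. ABCA12 stands near 3 in both lines in the left panel, and most changes in the middle panel, whose axis is narrower, are under 0.6.

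Of the 8 drug efflux members tested in both lines, 3 were called in opposite directions between the controls (37.5%, against 23.4% of all genes tested in both) and 1 rose in both (12.5% against 9.09%). In H1650, 4 of the 9 tested members rose (44.4%, against 32.2% of all genes) and 3 fell (33.3% against 31.7%) from the BrM to the Tr-BrM controls, with a median of 0.21, and ABCB1, ABCG2 and ABCC3 changed at least 2-fold. In PC9, 3 of 8 rose (37.5% against 29.6%) and 2 fell (25.0% against 30.3%), with a median of 0.04, and the changes ran from -0.72 to 0.27. ABCC3 and ABCC1 fell in H1650 and rose in PC9, and ABCC10 did the reverse.

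ABCB1 encodes P-glycoprotein, the multidrug pump of the blood-brain barrier. In H1650 its level was 0.406, 0.273 and 0.887 CPM over BrM controls, 3.95, 3.73 and 4.42 CPM over Tr-BrM controls and 5.29, 5.06 and 5.10 CPM over S100A9-inh libraries. The BrM libraries lay far below all others, with no overlap, and the rise to the Tr-BrM controls was 8.06-fold (log2 3.01 ± 0.24, adjusted p = 9.88e-12). The S100A9-inh libraries were all above the Tr-BrM controls, by 0.36 ± 0.15, which did not pass (adjusted p = 0.0797). Even so the level stayed low, since the BrM controls held 30 counts over 3 libraries and the other groups 269 and 397. On the BrM counts alone ABCB1 would not have passed the count filter, and it was tested through the groups where it is high. PC9 held 5, 1 and 7 ABCB1 counts in its 3 groups, against a floor of 3 counts, and the gene was not tested there.

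ABCB1 and its promoter are shown because its rise in H1650 came with near absence in PC9. In the 250 bases before a start inside the gene on chromosome 7, the RefSeq promoter table (GRCh38.p14) holds 2 matches to CCAAT, or ATTGG on the other strand, and 1 to the AP-1 letters TGANTCA. That start is not at the annotated 5' end of ABCB1, 87713323. The stretches below are 30 bases each on the reverse strand, chr7:87601105-87601134 and chr7:87600947-87600976, with matches in capitals. In the first, CCAAT and TGATTCA share 1 base.
ABCB1 distal: gttgaaatgtccCCAATGATTCAgctgatg
ABCB1 proximal: tgtggtgaggctgATTGGctgggcaggaac
The first match begins 238 bases and the other CCAAT match 79 bases before the start. Of 35116 promoter windows in the table, cut to the 250 bases before the start, 32.0% hold CCAAT or ATTGG and 6.57% hold TGANTCA. A match is a description of letters, not a binding site.

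ABCG2 encodes the breast cancer resistance protein, which exports drugs including several EGFR inhibitors. In H1650 it was at 53.2, 54.2 and 53.2 CPM over BrM controls, 109, 108 and 105 CPM over Tr-BrM controls and 95.8, 92.2 and 99.5 CPM over S100A9-inh libraries. All Tr-BrM control libraries lay above all BrM libraries, a 2.01-fold rise (log2 1.01 ± 0.041, adjusted p = 1.02e-18), and the S100A9-inh libraries lay between, having fallen by 0.17 on the log2 scale from the Tr-BrM controls (adjusted p = 0.000996). In PC9 the levels were 57.6, 57.3 and 56.2 CPM over BrM controls, 54.7, 57.5 and 57.0 CPM over Tr-BrM controls and 43.6, 50.5 and 44.4 CPM over S100A9-inh libraries. There the control groups overlapped (-0.02 ± 0.057, adjusted p = 0.829), and the S100A9-inh libraries were below both, with a log2 change of -0.29 ± 0.058 against the Tr-BrM controls (adjusted p = 0.000117). ABCG2 thus fell under S100A9-inh in both lines, and the test of a difference between the lines in that step did not pass (-0.12 ± 0.069, adjusted p = 0.183).

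ABCC1, or MRP1, exports glutathione conjugates and drugs at the basolateral membrane. In H1650 it was at 136, 139 and 138 CPM over BrM controls, 68.5, 72.3 and 69.2 CPM over Tr-BrM controls and 65.2, 67.8 and 65.2 CPM over S100A9-inh libraries. Its fall from the BrM to the Tr-BrM controls was 1.96-fold (log2 -0.97 ± 0.037, adjusted p = 3.23e-19), with the Tr-BrM groups close together. PC9 held 147, 150.0 and 148 CPM over BrM controls, 185, 169.6 and 164 CPM over Tr-BrM controls and 168, 154 and 154 CPM over S100A9-inh libraries. There the Tr-BrM controls were above the BrM controls by 0.22 ± 0.046 (adjusted p = 0.000117). The step to S100A9-inh was -0.12 ± 0.045 (adjusted p = 0.0244), with overlapping libraries, and this call was lost under upper quartile scaling (adjusted p = 0.0635), with library size alone (0.0652), and without Tr-BrM control replicate 1 (0.177) or S100A9-inh replicate 2 (0.0933) or 3 (0.0894).

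ABCC3, or MRP3, exports glucuronides and bile salts. H1650 held 51.7, 55.6 and 52.1 CPM over BrM controls, 20.3, 20.7 and 18.4 CPM over Tr-BrM controls and 17.1, 20.0 and 18.5 CPM over S100A9-inh libraries. It fell 2.68-fold between the controls (log2 -1.42 ± 0.063, adjusted p = 7.32e-18), and the Tr-BrM groups overlapped. In PC9 the values were 407, 402 and 402 CPM over BrM controls, 494, 488 and 476 CPM over Tr-BrM controls and 488, 429 and 431 CPM over S100A9-inh libraries. Both Tr-BrM groups stood above the BrM controls, and the rise between the controls was 0.27 ± 0.040 (adjusted p = 1.14e-06). Replicate 1 of PC9 S100A9-inh, the library that stood apart, was level with the Tr-BrM controls while the other 2 were lower, and the step of -0.11 ± 0.040 (adjusted p = 0.0198) was no longer called under 2 of the other scalings or without replicate 2 or 3 of that group. Per kilobase of exon, ABCC3 was the most abundant member in all 3 PC9 groups, at 42.0 ± 0.322, 50.5 ± 0.915 and 46.8 ± 3.49 CPM per kilobase.

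ABCC2, or MRP2, the apical pump for conjugated bilirubin, was second in PC9 on the same scale, at 39.9 ± 0.957, 39.8 ± 0.199 and 35.3 ± 0.296 CPM per kilobase, and at 0.887 ± 0.0588, 1.03 ± 0.0570 and 1.21 ± 0.0674 in H1650. Its PC9 libraries were at 307, 309 and 321 CPM over BrM controls, 313, 313 and 310.1 CPM over Tr-BrM controls and 276, 275 and 279 CPM over S100A9-inh libraries. The control groups overlapped, and all S100A9-inh libraries were lower, with a log2 change of -0.17 ± 0.035 (adjusted p = 0.000131). In H1650 it was at 6.82, 7.46 and 6.57 CPM over BrM controls, 8.27, 7.57 and 8.40 CPM over Tr-BrM controls and 8.99, 10.04 and 9.39 CPM over S100A9-inh libraries. The H1650 steps did not pass, but S100A9-inh against the BrM controls did, at 0.44 ± 0.10 (adjusted p = 0.000388).

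ABCC4, or MRP4, exports cyclic nucleotides and prostaglandins. H1650 held 5.92, 6.55 and 5.97 CPM over BrM controls, 8.32, 7.02 and 4.71 CPM over Tr-BrM controls and 10.8, 10.1 and 9.16 CPM over S100A9-inh libraries. The Tr-BrM controls were the most spread of its groups and overlapped the BrM controls, and all S100A9-inh libraries were higher, by 0.58 ± 0.13 (adjusted p = 0.000856). PC9 held 68.5, 64.1 and 72.1 CPM over BrM controls, 47.5, 48.6 and 48.1 CPM over Tr-BrM controls and 54.4, 54.0 and 55.4 CPM over S100A9-inh libraries. There it fell by 0.51 on the log2 scale between the controls (adjusted p = 1.97e-09) and rose by 0.18 ± 0.055 under S100A9-inh (adjusted p = 0.00618), to a level between both controls.

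ABCC11, which exports cyclic nucleotides and conjugated steroids, was at 1.45, 1.68 and 2.42 CPM over BrM controls, 1.25, 0.914 and 0.923 CPM over Tr-BrM controls and 0.514, 0.506 and 0.882 CPM over S100A9-inh libraries in H1650. The groups did not overlap, and it fell by 0.84 on the log2 scale between the controls (adjusted p = 0.00984), a call lost without BrM control replicate 3 (adjusted p = 0.0797) and with DESeq2 (adjusted p = 0.0557). In PC9 its group means were 0.468 to 0.533 CPM and no comparison passed. ABCC5, or MRP5, which exports cyclic nucleotides and heme, rose in H1650 from 21.6 ± 0.821 to 34.8 ± 3.31 CPM (0.69 ± 0.066, adjusted p = 3.67e-10). In PC9 it was at 208, 222 and 209 CPM, a rise of 0.09 ± 0.037 between the controls (adjusted p = 0.0355). ABCC10, or MRP7, a pump for taxanes, was at 50.3 ± 1.43, 30.6 ± 1.48 and 40.0 ± 2.68 CPM in PC9, falling by 0.72 (adjusted p = 3.27e-11) and rising by 0.39 (adjusted p = 7.85e-06) on the log2 scale in turn. In H1650 it rose between the controls by 0.23 ± 0.084 (adjusted p = 0.0181). ABCB5 had 22 counts in all H1650 libraries together and was at 0 in PC9.

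**Figure D2:**
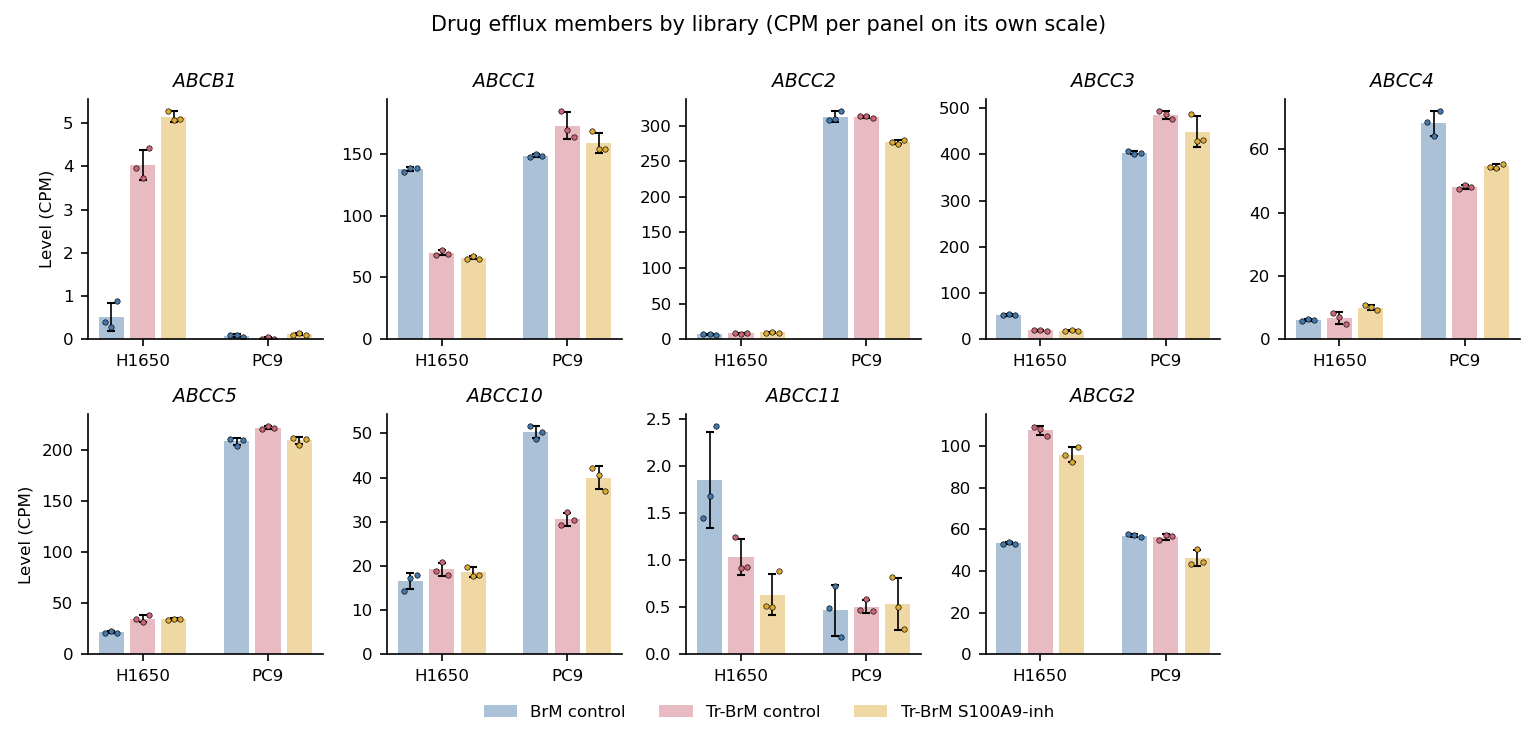
Levels of the 9 drug efflux members tested in some line, in CPM on a linear axis for each panel, by line and group; bars are means, error bars SD (n = 3) and points libraries. ABCB1 is at most 0.138 CPM in PC9, and ABCC2 and ABCC3 stand far higher in PC9. Within H1650, ABCC1 and ABCC3 are higher in the BrM controls than in the other groups.

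Among lipid transporters, 7 of 11 tested members rose (63.6%, against 32.2% of all genes) and 1 fell (9.09% against 31.7%) between the H1650 controls, with a median of 0.48. In PC9 4 of 10 rose (40.0% against 29.6%) and 2 fell (20.0% against 30.3%), with a median of 0.12. ABCA12 and ABCG1 rose in both lines. Under S100A9-inh, 4 of 11 fell in H1650 (36.4%, against 13.8% of all genes) and 7 did not pass. In PC9 5 of 10 fell (50.0% against 26.1%) and 3 rose, beside 26.3% of all genes. The S100A9-inh libraries of H1650 stood higher than the BrM controls for 6 of the 11 (54.5% against 32.5%) and lower for 2 (18.2% against 31.2%), and those of PC9 were higher for 5 of 10 (50.0% against 22.7%) and lower for 3, beside 23.6% of all genes.

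ABCA12 moves glucosylceramide into lamellar granules of the skin and is mutated in harlequin ichthyosis. In H1650 it was at 8.22, 7.46 and 6.98 CPM over BrM controls, 66.6, 70.0 and 67.9 CPM over Tr-BrM controls and 49.7, 49.9 and 52.1 CPM over S100A9-inh libraries. The BrM libraries were far below the rest, the rise between the controls was 8.98-fold (log2 3.17 ± 0.064, adjusted p = 6.27e-26), and the S100A9-inh libraries lay below all Tr-BrM controls (-0.43 ± 0.046, adjusted p = 1.63e-08). PC9 held 3.19, 2.77 and 3.25 CPM over BrM controls, 23.2, 26.0 and 25.0 CPM over Tr-BrM controls and 20.4, 21.9 and 21.5 CPM over S100A9-inh libraries. The order of the groups was the same: the rise was 8.05-fold (log2 3.01 ± 0.11, adjusted p = 8.2e-21) and the later step -0.22 ± 0.079 (adjusted p = 0.0216). That later PC9 call was lost with DESeq2 (adjusted p = 0.0748) and without Tr-BrM control replicate 2 (0.101) or 3 (0.0527) or S100A9-inh replicate 1 (0.0620). The lines did not differ past the threshold in the rise (-0.16 ± 0.14, adjusted p = 0.343), and they did in the later step (0.22 ± 0.086, adjusted p = 0.0384). Against the BrM controls, ABCA12 was 6.65-fold higher under S100A9-inh in H1650 and 6.92-fold higher in PC9.

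The ABCA12 gene lies on chromosome 2 (GENCODE 29 on GRCh38, 214931542 to 215138428, reverse strand). ABCA12 was chosen because it made the largest rise that passed in both lines. Of its promoter windows, only one that holds CACGTG was printed, so the presence of that motif was a condition of printing. The start used is not at the annotated 5' end of the gene, 215138428. The 250 bases before a RefSeq start inside the gene, chr2:215032087-215032336 on the reverse strand of GRCh38.p14, overlap no annotated exon on that strand. Capitals mark the E-box CACGTG, a palindrome, 152 bases before the start, and ATTGG, the reverse complement of CCAAT, 176 bases before it.
ABCA12 upstream: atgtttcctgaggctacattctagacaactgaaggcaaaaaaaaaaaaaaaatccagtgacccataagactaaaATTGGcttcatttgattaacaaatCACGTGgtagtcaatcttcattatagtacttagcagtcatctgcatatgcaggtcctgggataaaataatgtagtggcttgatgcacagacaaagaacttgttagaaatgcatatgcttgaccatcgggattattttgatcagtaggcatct
ABCG2 and ABCA1, which both rose in H1650, also hold CACGTG in this window, shown in 30 bases on the reverse strand at chr4:88159013-88159042 and chr9:104928285-104928314.
ABCG2 E-box: agcgcggcaggaCACGTGtgcgctttcagc
ABCA1 E-box: gggccccggctcCACGTGctttctgctgag
The ABCA1 match begins 147 bases before its start, and that of ABCG2 121 or 171 bases before its 2 starts in the table. Both ABCG2 starts lie inside the gene, whose annotated 5' end is 88231322. CACGTG occurs in 6.35% of the 35116 windows and in 9 of the 53 windows of members, which belong to 8 of the 35 members with an entry: ABCA1, ABCA9, ABCA12, ABCB6, ABCB9, ABCC10, ABCF1 and ABCG2. Between the controls, ABCA12 and ABCF1 rose in both lines, ABCB9 fell in both, and ABCC10 rose in H1650 and fell in PC9. ABCA1 and ABCG2 rose in H1650 and did not pass in PC9. ABCB6, tested in PC9 alone, did not pass there, and ABCA9 was tested in neither line. Whether the letters go with the changes was not tested.

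ABCA1 loads cholesterol and phospholipid onto apolipoprotein A-I. In H1650 it was at 19.6, 20.1 and 20.4 CPM over BrM controls, 38.2, 42.3 and 38.9 CPM over Tr-BrM controls and 43.2, 44.9 and 42.4 CPM over S100A9-inh libraries. It rose 1.99-fold between the controls (log2 0.996 ± 0.059, adjusted p = 7.82e-15), and the S100A9-inh libraries, all slightly above the Tr-BrM controls, did not differ past the threshold (adjusted p = 0.0734). In PC9 the levels were 87.0, 85.6 and 87.0 CPM over BrM controls, 79.0, 82.5 and 85.1 CPM over Tr-BrM controls and 88.5, 87.5 and 86.7 CPM over S100A9-inh libraries. No PC9 comparison passed, with changes from -0.07 to 0.09.

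ABCG1, which passes cholesterol to high-density lipoprotein, was low in H1650, at 0.497, 1.05 and 0.532 CPM over BrM controls, 2.08, 2.38 and 2.19 CPM over Tr-BrM controls and 1.47, 2.11 and 1.30 CPM over S100A9-inh libraries. It rose 3.15-fold between the controls (log2 1.66 ± 0.28, adjusted p = 7.42e-06). PC9 held 2.79, 2.92 and 2.83 CPM over BrM controls, 8.38, 6.91 and 7.21 CPM over Tr-BrM controls and 9.24, 9.45 and 7.90 CPM over S100A9-inh libraries. The Tr-BrM groups overlapped in PC9 and both lay above the BrM controls, with a rise of 1.39 ± 0.14 (adjusted p = 9.39e-10). The difference between the lines in this rise did not pass (-0.26 ± 0.31, adjusted p = 0.505).

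ABCA4, known as the retinal flippase of Stargardt disease, made, with ABCA12, the largest changes of a member between the PC9 controls. Its libraries there were at 1.52, 0.923 and 1.25 CPM over BrM controls, 9.58, 10.9 and 9.92 CPM over Tr-BrM controls and 3.97, 4.01 and 3.49 CPM over S100A9-inh libraries. The groups did not overlap: it rose 8.20-fold between the controls (log2 3.04 ± 0.17, adjusted p = 9.62e-16) and fell 2.64-fold under S100A9-inh (log2 -1.40 ± 0.14, adjusted p = 8.66e-10), to a level still 3.10-fold above the BrM controls (adjusted p = 3.81e-08). In H1650 it was at 0.373, 0.516 and 0.546 CPM, with overlapping libraries and no call. Both of its PC9 changes differed from those of H1650, by 2.55 ± 0.49 (adjusted p = 2.51e-05) and -1.50 ± 0.39 (adjusted p = 0.00169).

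ABCA13, a very large transporter linked to sphingolipids and cholesterol, was at 2.67, 2.41 and 2.01 CPM over BrM controls, 7.85, 7.94 and 7.87 CPM over Tr-BrM controls and 8.99, 9.58 and 8.28 CPM over S100A9-inh libraries in H1650. It rose 3.30-fold between the controls (log2 1.72 ± 0.13, adjusted p = 3.32e-12), and in PC9 it had 7, 4 and 5 counts per group and was not tested. ABCA5, an endosomal and lysosomal lipid transporter, rose in H1650 from 16.8 ± 0.251 to 33.2 ± 0.692 CPM (0.99 ± 0.060, adjusted p = 1.5e-14). In PC9 it fell under S100A9-inh, from 5.28 ± 0.872 to 3.29 ± 0.0638 CPM (-0.68 ± 0.17, adjusted p = 0.000978).

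ABCA3, the phospholipid pump of surfactant lamellar bodies, rose between the H1650 controls by 0.37 ± 0.13 (adjusted p = 0.0158), at 4.41 to 7.78 CPM over all H1650 libraries. In PC9 it rose under S100A9-inh, from 26.96 ± 1.48 to 38.0 ± 3.32 CPM (0.50 ± 0.073, adjusted p = 9.51e-07). ABCA2, an endolysosomal sterol regulator, fell under S100A9-inh in both lines, with log2 changes of -0.26 ± 0.055 (adjusted p = 0.000608) and -0.29 ± 0.049 (adjusted p = 8.41e-06). ABCA7, a phospholipid exporter studied in Alzheimer's disease, fell in that step in H1650 (-0.31 ± 0.087, adjusted p = 0.00660) and rose in PC9 (0.46 ± 0.073, adjusted p = 4.3e-06). ABCD3, a peroxisomal transporter, did not pass in any H1650 comparison, at 61.4 to 70.5 CPM. In PC9 it was at 68.7, 81.5 and 61.3 CPM, rising by 0.25 (adjusted p = 0.000372) and falling by 0.41 (adjusted p = 4.29e-07) on the log2 scale.

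**Figure D3:**
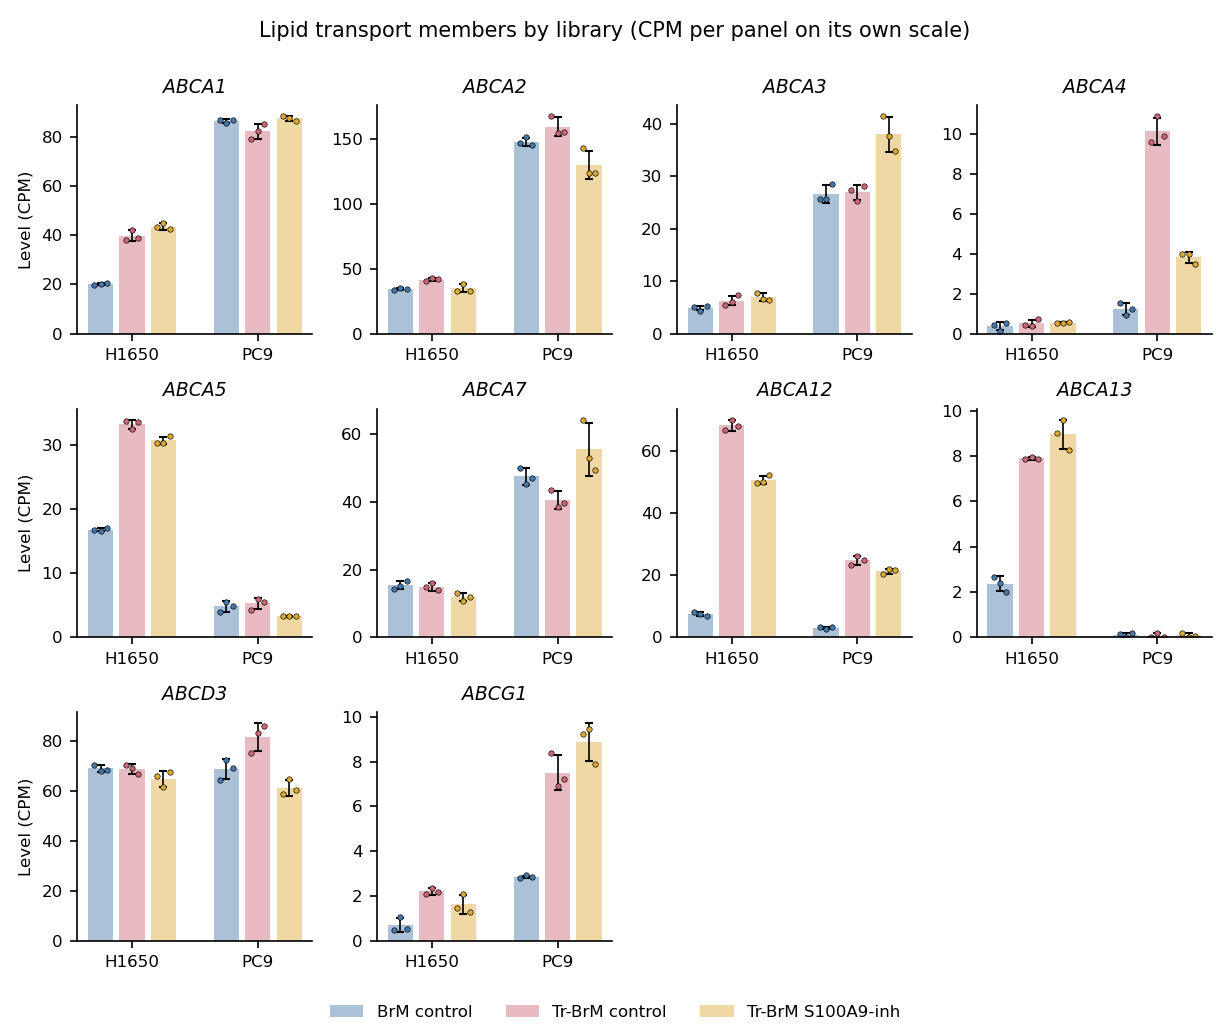
Levels of 10 lipid transport members tested in some line, in CPM on a linear axis for each panel, by line and group; bars are means, error bars SD (n = 3) and points libraries. ABCA12 is lowest in the BrM controls of both lines, and ABCA4 peaks at 10.1 CPM in the PC9 Tr-BrM controls.

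In the mitochondrial, lysosomal and cobalamin group, ABCB9, which carries peptides into lysosomes, fell in both lines. Its PC9 libraries were at 18.5, 20.6 and 21.6 CPM over BrM controls, 10.5, 9.29 and 8.34 CPM over Tr-BrM controls and 15.2, 14.4 and 12.6 CPM over S100A9-inh libraries. The groups did not overlap: ABCB9 fell 2.17-fold (log2 -1.11 ± 0.10, adjusted p = 4.81e-11) and rose again by 0.59 ± 0.10 under S100A9-inh (adjusted p = 1.92e-05). In H1650 the fall was -0.57 ± 0.089 (adjusted p = 2.57e-06), from 16.9 ± 0.675 to 11.6 ± 1.23 CPM. ABCB8, part of a mitochondrial potassium channel, rose between the H1650 controls by 0.34 ± 0.042 (adjusted p = 4.35e-08) and fell between those of PC9 (-0.13 ± 0.056, adjusted p = 0.0446). ABCD4, needed to release cobalamin from lysosomes, fell between the PC9 controls by 0.34 on the log2 scale (adjusted p = 8.27e-06) and rose under S100A9-inh by 0.31 (adjusted p = 3.6e-05). ABCB10 passed in no comparison. ABCB6, an outer mitochondrial membrane transporter tested in PC9 alone, ran from 0.0922 to 1.17 CPM over the PC9 libraries and was lower under S100A9-inh than in the BrM controls (log2 -1.35 ± 0.53, adjusted p = 0.0356), with overlapping libraries.

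Of the channel regulators and other ABCC members, ABCC9, the SUR2 subunit of potassium channels, held 3 counts in the H1650 BrM controls and 46 and 44 in the other groups, ratios of 13.9 (95% counting interval 4.48 to 70.1) and 11.6 (3.73 to 58.5), with all libraries higher. ABCC8, the SUR1 subunit, held 9, 35 and 37 counts there, with a log2 change of 1.80 ± 0.57 between the controls and all libraries higher. Both were under 1 CPM in every library and too low in the BrM controls to pass the count filter there. They entered the test only through the groups where they are high, so no p-value is read for them. In PC9, ABCC8 was at 0 and ABCC9 had 5 counts in all. ABCC6, mutated in pseudoxanthoma elasticum, passed in no comparison, with levels of 0.147 to 1.79 CPM. Its near-copies ABCC6P1 and ABCC6P2 held 157 and 85 counts in H1650, where ABCC6 had 248, so that reads may be split among them.

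Of the translation factors, ABCE1, which recycles ribosomes, was called in PC9 and in no H1650 comparison. Its PC9 libraries were at 61.8, 62.8 and 66.9 CPM over BrM controls, 111, 119 and 123 CPM over Tr-BrM controls and 71.7, 92.4 and 92.2 CPM over S100A9-inh libraries. It rose by 0.89 ± 0.066 (adjusted p = 7.18e-13) and fell by 0.47 on the log2 scale under S100A9-inh (adjusted p = 3.98e-07), with replicate 1 of that group the lowest. The rise differed from that of H1650 (0.95 ± 0.078, adjusted p = 8.62e-14), where ABCE1 was at 119 to 129 CPM in all libraries. ABCF1, ABCF2 and ABCF3 changed by at most 0.24 in size in any comparison. ABCF1 was the most abundant member per kilobase in all H1650 groups, at 38.9 ± 1.31, 41.5 ± 0.710 and 44.1 ± 1.03 CPM per kilobase. In the Tr-BrM controls of H1650, ABCG2 came next at 21.3 ± 0.434, ahead of ABCE1 at 19.3 ± 0.258, and in the BrM controls ABCG2 stood behind ABCF1, ABCE1, ABCC1 and ABCF3 at 10.6 ± 0.112.

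Whether a change differed between the lines was tested in a joint model of all 18 libraries, as the PC9 change minus the H1650 change, over 19076 genes and 32 members. Of the 28 members tested in both lines, 17 differed between the controls (60.7%, against 64.7% of the 14888 genes tested in both), 16 under S100A9-inh against Tr-BrM controls (57.1% against 49.4%) and 15 under S100A9-inh against BrM controls (53.6% against 59.8%). Over all 32 members the counts were 19 (59.4%, against 54.6% of all genes), 16 (50.0% against 40.4%) and 17 (53.1% against 50.2%). ABCA13, ABCB1 and ABCC9 passed the count filter in H1650 alone and ABCB6 in PC9 alone, so their differences between the lines are not read. Of the same 28 members, 4 rose in both between the controls (ABCA12, ABCG1, ABCC5 and ABCF1), 2, among them ABCB9, fell in both and 4 moved in opposite directions (ABCB8, ABCC1, ABCC3 and ABCC10). Over all genes tested in both lines, 9.09% rose in both, 11.3% fell in both and 23.4% were opposite. The differences for drug efflux were 1.69 ± 0.074 for ABCC3 (adjusted p = 1.66e-22), 1.19 ± 0.062 for ABCC1 (adjusted p = 5.63e-20) and -1.02 ± 0.070 for ABCG2 (adjusted p = 2.76e-16). For the lipid transporter ABCA1 it was -1.07 ± 0.074 (adjusted p = 3.47e-16). Levels were scaled within each line, and no test compared a level between the lines.

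**Figure D4:**
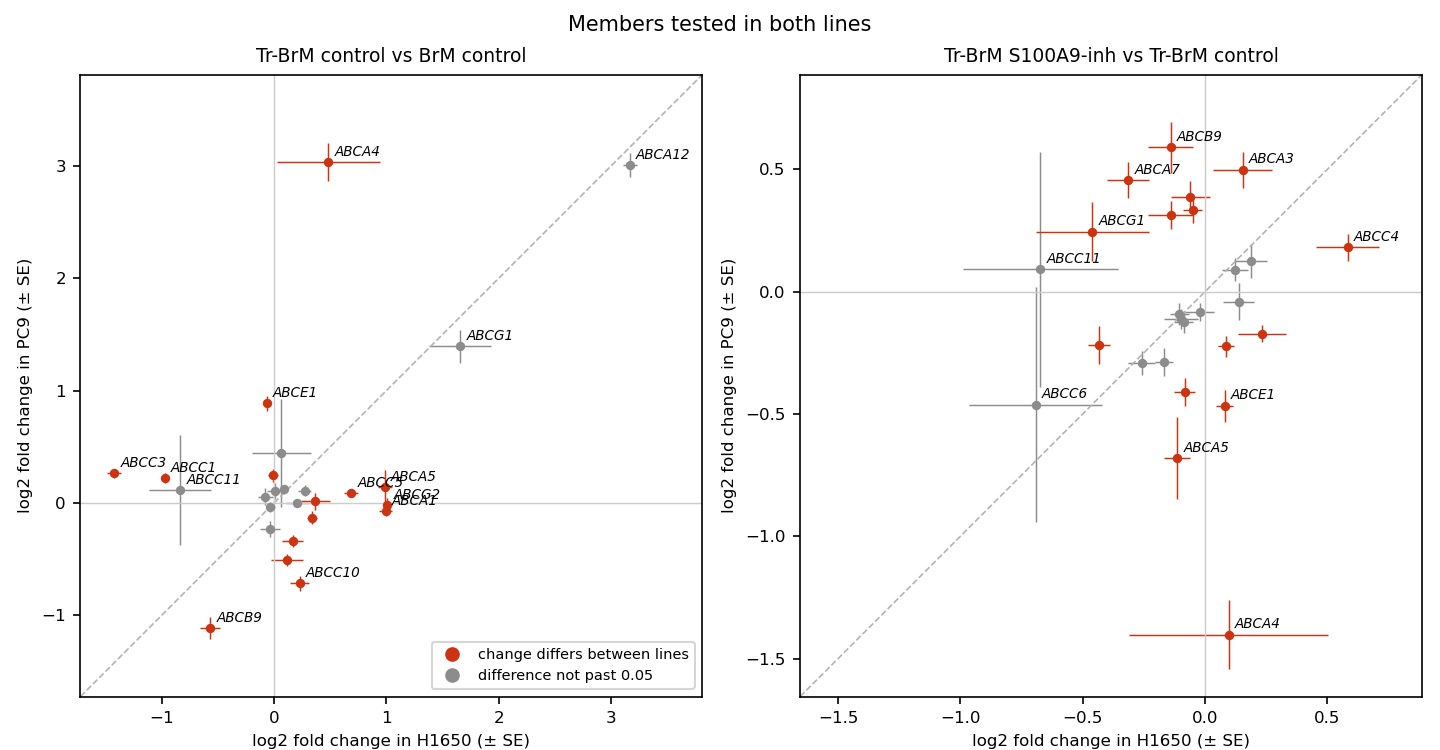
Log2 fold change ± SE in H1650 (x axis) and PC9 (y axis) of 26 members tested in both lines, for 2 comparisons; red points differ between the lines at an adjusted p under 0.05 in the joint model, grey points do not, and the dashed line marks equal change. ABCA12 and ABCG1 lie near the dashed line in the left panel, and ABCA4 lies far above it.

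Genes that work with these members were followed in lists, whose counts between the controls stand beside 32.2% of all genes higher and 31.7% lower in H1650, and 29.6% higher and 30.3% lower in PC9. Of 12 genes of the liver X receptor arm of sterol efflux, which controls ABCA1 and ABCG1, 7 rose (58.3%) and 3 fell (25.0%) between the H1650 controls, and in PC9 5 of 11 tested fell (45.5%) and 6 did not pass. In H1650, APOE, the lipid-carrying apolipoprotein, rose from 17.3 ± 1.94 to 216 ± 4.85 CPM (log2 3.65 ± 0.058, adjusted p = 3.18e-28). SMPDL3A, a phosphodiesterase, rose from 2.87 ± 0.716 to 51.1 ± 0.925 CPM, and RXRA, the receptor's partner, rose by 1.08 ± 0.034. SCARB1, the high-density lipoprotein receptor, fell in both lines, with log2 changes of -1.10 ± 0.060 (adjusted p = 1.57e-15) and -1.08 ± 0.045 (adjusted p = 7.02e-19). APOE is also abundant in astrocytes. Their summed markers were at most 42.1 CPM in the H1650 BrM controls and at least 262 CPM in the Tr-BrM controls, although 1 of the 6 fell. The part of astrocytes was not tested.

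Another list held 16 genes of xenobiotic sensing, metabolism and conjugation, some of which make substrates for the ABCC pumps. Of these, 4 of 12 tested rose (33.3%, against 32.2% of all genes) and 7 fell (58.3% against 31.7%) between the H1650 controls. In PC9 8 of 14 rose (57.1% against 29.6%) and 4 fell (28.6% against 30.3%). In H1650, 6 of the 12 changed at least 2-fold (50.0% against 20.6%), 2 up and 4 down, and log2 changes ran from -2.77 to 1.70. NQO1, a quinone reductase, fell there with a log2 change of -1.07 ± 0.033 (adjusted p = 1.42e-21). EPHX1, an epoxide hydrolase, fell with -1.84 ± 0.057 (adjusted p = 1.91e-21) and MGST1, a membrane glutathione transferase, with -1.01 ± 0.036 (adjusted p = 4.37e-20). Of the tested ABCC pumps, ABCC1, ABCC3 and ABCC11 fell in H1650, and ABCC5 and ABCC10 rose. In PC9, NQO1, EPHX1 and MGST1 rose, by 0.35 ± 0.032 (adjusted p = 4.48e-11), 0.25 ± 0.045 (adjusted p = 1.95e-05) and 0.40 ± 0.038 (adjusted p = 1.15e-10). Of the pumps, ABCC1, ABCC3 and ABCC5 rose there, and ABCC4 and ABCC10 fell. GCLC, which starts glutathione synthesis, rose in PC9 from 36.5 ± 0.203 to 125 ± 2.44 CPM. The named changes of this list are all falls in H1650 and all rises in PC9, although 4 of its genes moved the other way in each line. Whether these genes and the pumps move together was not tested.

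Of 17 genes of lamellar granules and epidermal ceramides, the setting of ABCA12 in skin, 10 of 15 tested rose (66.7%, against 32.2% of all genes) and 3 fell (20.0% against 31.7%) between the H1650 controls. In PC9 7 of 11 rose (63.6% against 29.6%) and 3 fell (27.3% against 30.3%). Of these PC9 changes, 3 were at least 2-fold (27.3% against 12.7%), all upward, and the largest log2 change was 3.34. KLK5, a protease of these granules, fell in H1650 (-2.49 ± 0.038, adjusted p = 1.43e-28) and rose in PC9 (1.282 ± 0.042, adjusted p = 9.06e-22). In H1650 the epidermal transcription factor GRHL3 rose by 2.73 ± 0.080 (adjusted p = 4.28e-22), the ceramide synthase CERS3 by 3.12 ± 0.18 (adjusted p = 3.7e-15) and the fatty acid elongase ELOVL4 by 1.16 ± 0.071 (adjusted p = 1.46e-14). In PC9, GRHL3 fell by 0.35 on the log2 scale (adjusted p = 0.00669), and CERS3 and ELOVL4 were not tested, with group means of at most 0.0464 CPM.

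Further partner lists held fewer tested genes. Of 8 surfactant and lamellar body genes, 2 were tested in H1650 and 1 in PC9. LAMP3 rose between the H1650 controls by 1.31 ± 0.052 (adjusted p = 5.77e-19), and the surfactant genes SFTPA1, SFTPA2, SFTPB and SFTPC had group means of at most 0.283 CPM. Of the 8 peroxisomal beta-oxidation genes, 3 of 7 tested rose (42.9%, against 32.2% of all genes) and 4 did not pass in H1650. In PC9 3 of 8 rose and 3 fell (37.5% each, against 29.6% and 30.3%), with changes of -0.66 to 0.81. Of 6 partners of the channel, peroxisomal and cobalamin members, 5 were tested in each line, and between the controls 2 rose (40.0% against 32.2%) and 1 fell (20.0% against 31.7%) in H1650 and 2 rose in PC9 (40.0% against 29.6%). KCNJ11, the pore that pairs with ABCC8, rose in H1650 from 0.260 ± 0.0488 to 0.847 ± 0.344 CPM (1.71 ± 0.42, adjusted p = 0.000787). Of the relatives with other symbols, CFTR, the chloride channel, was tested in neither line, and TAP2 in PC9 alone. TAP1, which carries peptides for antigen presentation, fell between the controls by 0.66 on the log2 scale in H1650 (adjusted p = 2.63e-14) and by 0.28 in PC9 (adjusted p = 0.000458).

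Some members lie next to each other in the genome. With gaps of at most 200000 bases, 10 neighbouring pairs of members were found, holding 17 members. On chromosome 17 (68867292 to 69327244), ABCA5 was at 16.8 to 33.2 CPM by group in H1650, while ABCA6, ABCA8, ABCA9 and ABCA10, its neighbours in the same run, had group means of at most 0.2002 CPM. On chromosome 7 (87401697 to 87713323), ABCB1 rose in H1650 beside ABCB4, the phosphatidylcholine flippase of bile, which had 0, 10 and 9 counts in the H1650 groups. On chromosome 16 (15949577 to 16223522), ABCC1 lay 5853 bases from ABCC6, which was at most 1.41 CPM by group.

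The members that did not pass the filter were ABCA6, ABCA8, ABCA9, ABCA10, ABCB4, ABCB5, ABCB11, ABCC12, ABCD2, ABCG4, ABCG5 and ABCG8 in both lines, ABCB6 in H1650, and ABCA13, ABCB1, ABCC8 and ABCC9 in PC9. They held at most 52 counts each over the 9 libraries of H1650 and at most 20 over those of PC9. ABCG5 had no count in H1650, and ABCA6, ABCA8, ABCA9, ABCB5 and ABCC8 had none in PC9. Among them, the bile salt pump ABCB11 held 13 counts in the PC9 Tr-BrM controls, 2 in the BrM controls and 4 under S100A9-inh. The ratio between the controls was 6.85 (95% counting interval 1.55 to 62.5, which covers counting error only). The Tr-BrM control libraries were uneven, at 0.0283 ± 0.0233 CPM per kilobase. This ratio was picked from many, and most of the others had intervals that span equal levels.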

How the data were processed

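Per the labels' protocols, poly-A selected RNA was made into TruSeq-compatible libraries. The authors deposited 1 table of raw counts per gene for each line. Per the submitters' processing notes, STAR, GRCh38, R 4.0.1 and DESeq2 1.28.1 were used. Counter, annotation release and use of strand were not given in the sources used here, so reads of overlapping, antisense and near-identical genes may be split. Members were matched by identifier to GENCODE 29. The 9 libraries of a line entered 1 quasi-likelihood fit of edgeR 4.0.16 (R 4.3.3), scaled by TMM and filtered by filterByExpr. P-values were adjusted by Benjamini-Hochberg across the line's tested genes, with 0.05 as threshold, and SE was taken as the size of the log2 change divided by the root of F. Differences between lines were contrasts in 1 model of 18 libraries. Alternatives were other scalings and filters, DESeq2 1.42.0, fewer libraries and leaving out each replicate. The script was tested on simulated counts. Depths were 17.4 to 27.1 M counts, and genes of few counts have wide errors. Per-library values are given for members at 1 CPM or more in some group that passed with at least 2-fold change, and always for ABCB1, ABCC1, ABCC2, ABCC3, ABCC4, ABCG2, ABCA1, ABCA12 and ABCG1. For the partner lists, at most 4 genes past 2-fold were named by smallest p. The members, lists and rules were chosen with earlier results of these data known. The individual results of 2 members are not reported here, although all counts include them.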

Additional observations from a re-analysis of the deposited data

Results flagged for a closer look

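Changes that differed between H1650 and PC9 are given as PC9 change minus H1650 change on the log2 scale, from edgeR's interaction test with an adjusted p under 0.05. Of the 28 members tested in both lines, 17 differed for Tr-BrM against BrM controls, 16 for S100A9-inh against Tr-BrM controls and 15 for S100A9-inh against BrM controls, beside the shares of all genes given above. For Tr-BrM against BrM controls, reported differences of at least 1 in size were -1.07 for ABCA1, 2.55 for ABCA4, 1.19 for ABCC1, 1.69 for ABCC3 and -1.02 for ABCG2. For S100A9-inh against Tr-BrM controls that of ABCA4 was -1.50. For S100A9-inh against BrM controls they were -1.10 for ABCA1, -1.41 for ABCA5, 1.16 for ABCC1, 1.73 for ABCC11, 1.68 for ABCC3, -1.02 for ABCC4 and -1.14 for ABCG2.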

How the results depend on the processing

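Of 177 recomputed counts of members, 174 stayed within 1.5 times the reported count. In H1650 under S100A9-inh against Tr-BrM controls, the members that fell numbered 10 with library size alone (6 as reported), and those that rose numbered 1 with DESeq2 (3 as reported). In PC9 under S100A9-inh against BrM controls, the members that fell ranged from 7 to 10 when 1 replicate was left out (11 as reported), with 7 reached without BrM control replicate 2. The cause was not tested. Counting only members tested in both lines, an alternative chosen after seeing the data, gave 17, 16 and 15 members that differ between the lines, against 19, 16 and 17. Of 858 recomputed changes of the members with per-library values, 829 kept their side of the threshold, 16 lost and 13 gained a call, and 0 changed sign while called. No paired analysis was possible because the labels give the libraries no shared replicate numbers. Other scalings moved the median of all genes by at most 0.084 (log2). At these depths, members below about 1 CPM could show only large changes.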

Other observations

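In the H1650 BrM controls, ABCC5 and ABCB10, on different chromosomes, held the same counts in all 3 libraries: 462, 494 and 361. Among 10983 genes with 300 or more counts in that group, 10 shared all 3 counts with another gene, and in the other 5 groups 4 to 10 did. In the Tr-BrM controls the counts were 656, 873 and 791 for ABCC5 and 405, 569 and 400 for ABCB10. This was looked for after the values were seen.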
